A study of Mus musculus with 6 samples.

Results

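Sterol and fatty acid synthesis genes were followed in thymocyte RNA hybridized to 6 Affymetrix mouse genome arrays. The 38 listed names covered the enzymes of cholesterol synthesis, the enzymes of fatty acid synthesis, elongation and desaturation, and the regulators and transport proteins that act on them. The names were listed by gene function, and where a gene had several probe sets the one with the highest mean over the 6 arrays was read. A probe set whose annotation gave 1 of these names alone existed for 34 genes, and 33 of them passed the filter on low values, out of 8693 genes measured in all. Of these, 17 act in sterol synthesis, 11 in fatty acid synthesis, and 5 are regulators or transport proteins. *Sc4mol* is an older name of *Msmo1*, which was measured. *Acat2*, *Acsl3* and *Insig1* were not analysed here because no probe set was annotated to them alone. *Acaca*, the gene of the carboxylase that makes malonyl-CoA, lay below the filter at 4.98, 4.71 and 4.59 in arrays labelled SCLtg LMO1tg and at 4.54, 5.44 and 5.13 in arrays labelled control. All values are log2 RMA expression values as deposited.

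The arrays labelled SCLtg LMO1tg came from 3-week-old *Cd3e*-/- mice of the C57BL6 strain that carried *SCL* under the *Sil* promoter and *LMO1* under the *Lck* promoter, both oncogenes of T-cell leukemia. The arrays labelled control came from *Cd3e*-/- mice of the same age and strain without the transgenes. Each label had 3 arrays, and the *Cd3e* deletion, which blocks thymocytes at the DN3 stage before a T-cell receptor is formed, was shared by both. The thymus was dissected whole, so that fewer cells of a type and less RNA per cell cannot be told apart. Neither the labels nor the methods state that each array was a different animal, and p-values measure the spread between these arrays, which may be technical.

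*Lmo1*, 1 of the transgenic oncogenes, went against the labels. It was at 5.11, 5.07 and 4.86 in arrays labelled SCLtg LMO1tg and at 6.64, 6.84 and 6.77 in arrays labelled control, with a difference of −1.74 on the log2 scale (SE 0.14, adjusted p = 8.3e-04 by limma). It is not known here whether its probe set also detects the transcript of the transgene. *Tal1*, the gene of SCL, did not pass the filter, at 4.55, 4.63 and 4.71 in arrays labelled SCLtg LMO1tg and at 4.35, 4.27 and 4.44 in arrays labelled control. *Cd3e*, deleted in both groups, gave a signal of 8.41 to 8.72 over the 6 arrays with a difference of 0.07 (adjusted p = 0.873), and whether its probe set lies outside the deleted part was not tested. The labels are used as they stand, and every difference is the mean of the arrays labelled SCLtg LMO1tg minus that of the arrays labelled control. The list of changed genes that accompanied the study gives *Idi1* and *Elovl6* the direction opposite to the one found here with these labels. The same holds for *Ptcra*, *Cdc6* and *Slc4a1*, genes outside the pathway whose values are given below, and so *Lmo1* is not the only gene that goes against the labels. With exchanged labels every sign below would turn.

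Cholesterol is built from acetyl-CoA through mevalonate, isoprenyl diphosphates, squalene and lanosterol, and dividing lymphocytes need it for new membrane. Fatty acids are built from the same acetyl-CoA by a synthase, then lengthened by elongases and given double bonds by desaturases. Both branches are driven by the membrane-bound transcription factors SREBP1 and SREBP2, which the escort protein SCAP carries out of the endoplasmic reticulum when sterol is scarce and which the INSIG proteins hold back when it is plentiful. SREBPs bind sterol regulatory elements and act together with NF-Y at CCAAT boxes and with Sp1 at GC boxes close to the start of their target genes.

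To show promoters of genes with large differences, the 250 bases before the annotated start are printed below, 5′ to 3′, from RefSeq on GRCm38.p6. None of these genes passed in the main limma fit, and whether the motifs go with the differences was not tested. *Hmgcs1*, *Idi1* and *Cyp51* were chosen as sterol enzymes with higher values in arrays labelled SCLtg LMO1tg, and *Elovl6* as the fatty acid enzyme with lower values. Capitals mark exact matches, on either strand, to TCACNCCAC (a sterol regulatory element), CCAAT (the NF-Y box, which reads ATTGG on the other strand) and GGGCGG (the Sp1 box, which reads CCGCCC on the other strand).
Hmgcs1, chr13:119690101-119690350, plus strand: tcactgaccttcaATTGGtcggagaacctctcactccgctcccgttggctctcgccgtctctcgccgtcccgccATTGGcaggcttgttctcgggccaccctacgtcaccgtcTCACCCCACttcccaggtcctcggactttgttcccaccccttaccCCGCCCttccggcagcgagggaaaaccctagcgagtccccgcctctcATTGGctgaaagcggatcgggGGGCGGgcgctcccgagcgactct
Idi1, chr13:8885356-8885605, plus strand: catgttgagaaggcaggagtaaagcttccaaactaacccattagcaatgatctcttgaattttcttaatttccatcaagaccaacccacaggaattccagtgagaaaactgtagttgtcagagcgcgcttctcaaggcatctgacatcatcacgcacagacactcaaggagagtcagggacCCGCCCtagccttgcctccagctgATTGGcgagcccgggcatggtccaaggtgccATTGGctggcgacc
Cyp51, chr5:4104698-4104947, minus strand: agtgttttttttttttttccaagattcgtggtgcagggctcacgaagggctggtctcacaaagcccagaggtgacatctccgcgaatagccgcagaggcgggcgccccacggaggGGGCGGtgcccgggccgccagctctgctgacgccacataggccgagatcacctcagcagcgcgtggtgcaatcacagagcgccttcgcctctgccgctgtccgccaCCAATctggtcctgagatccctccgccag
Elovl6, chr3:129532136-129532385, plus strand: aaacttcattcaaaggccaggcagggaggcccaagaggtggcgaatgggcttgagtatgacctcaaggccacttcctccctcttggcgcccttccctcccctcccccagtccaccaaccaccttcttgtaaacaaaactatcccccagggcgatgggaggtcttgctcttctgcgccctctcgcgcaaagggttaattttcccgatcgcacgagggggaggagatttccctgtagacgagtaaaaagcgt
The *Hmgcs1* window held 1 sterol regulatory element, 3 CCAAT boxes and 2 GC boxes, the *Idi1* window 2 CCAAT boxes and 1 GC box, and the *Cyp51* window 1 of each of these boxes. The *Elovl6* window held none of the 3 motifs. Promoter entries were found for 14 sterol, 8 fatty acid and 4 regulator or transport genes, and *Sqle*, *Fdps* and *Fdft1* had none. CCAAT occurred in 14 of the 14 sterol genes, 4 of the 8 fatty acid genes and 3 of the 4 regulators, beside 2821 of the 7047 tested genes with an entry. The GC box occurred in 13 of 14 sterol genes, 5 of 8 fatty acid genes and 4 of 4 regulators, beside 62.5% of those tested genes. *Hmgcs1* was the only one of these pathway genes with the sterol regulatory element letters, which 1.3% of those tested genes held. These are matches of letters and not measured binding sites, and genes with several starts were counted once over all their windows.

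The arrays correlated with each other at 0.969 to 0.994 over all probe sets, and their medians lay between 5.57 and 5.70. The mean of 9 probe sets for the bacterial hybridization controls split the arrays into a low set and a high set. SCLtg LMO1tg replicates 2 and 3 (8.70 and 8.64) and control replicate 1 (9.19) formed the low set, and SCLtg LMO1tg replicate 1 (10.24) and control replicates 2 and 3 (10.37 and 10.45) the high set. Its mean was 9.20 ± 0.91 in arrays labelled SCLtg LMO1tg and 10.00 ± 0.71 in arrays labelled control (SD, n = 3 each, two-sided exact permutation p = 0.20), and since 0.1 is the smallest p that 3 against 3 arrays allow, the test could not have passed 0.05. Control replicate 2 had the smallest excess of 3′ over 5′ signal, 1.48 on the log2 scale for *Actb* and 2.38 for *Gapdh*, where the other arrays lay between 2.26 and 2.86 and between 3.01 and 3.51. The sets are not balanced over the labels, so that differences within each set are given beside the main results. Over the 33 genes 19 were higher in both sets, beside 2643 of all 8693 genes, and 5 were lower in both, beside 2572. The other 9 had opposite signs in the 2 sets. The low set held 1 control array and the high set 1 SCLtg LMO1tg array, so that each difference within a set rests on it. *Xist* was at 10.08 and 10.37 in SCLtg LMO1tg replicates 1 and 2, where the Y-linked *Eif2s3y* was also at 5.43 and 6.23, against 2.74 in replicate 3. In the arrays labelled control, *Xist* was at 11.06, 6.15 and 10.91 and *Eif2s3y* at 3.15, 5.74 and 2.85. The labels do not state the sex of the animals, and these values differ within each label. *Nsdhl*, *Ebp* and *Acsl4* lie on the X chromosome, and the part of sex in the differences was not tested. Of the 8 DN3 markers 7 were measured, with a median difference of 0.13. *Ptcra*, the pre-TCR alpha chain, passed at a difference of 1.28 (adjusted p = 0.0127), higher in arrays labelled SCLtg LMO1tg, and was at 8.90 or above in all arrays. The study describes *Ptcra* as inhibited by SCL, which is the opposite direction. *Cd4* was low in all arrays, at 5.27 to 5.80, and *Cd8a*, *Cd8b1* and *Ccr7* of later thymocytes lay below the filter.

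Among the 33 genes 0 reached an adjusted p under 0.05 by limma, where 14 of 8693 genes (0.161%) did. The same test had 5 of the 33 genes higher in arrays labelled SCLtg LMO1tg at an unadjusted p under 0.05, which is 15.2% beside 6.30% of all genes, and 1 lower, beside 3.14% of all genes. The groups did not overlap for 6 genes that were higher, or 18.2% beside 7.32% of all genes, and for 1 gene that was lower, or 3.03% beside 6.37%. Among the 6, *Stard4* was separated by less than the rounding, with its nearest arrays of either label both at 7.34. *Idi1* (7.80 against 7.77) and *Sqle* (7.36 against 7.31) were separated narrowly. Rank products, the test the study's methods name, called 1 of the 33 genes (threshold of 0.1 on the estimated percentage of false positives), beside 1.01% of all genes. At a stricter threshold of 0.01, which heads the list of changed genes of the study, it called 0 of the 33, beside 0.276% of all genes. That list does hold *Idi1* and *Elovl6*, whose values here were 0.250 and 0.0280. The input differed, as the study first removed probe sets detected as absent in both conditions. Here 1 probe set a gene was used after the filter on low values. Over the 33 genes 28 differed by less than 1.5-fold in either direction.

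**Figure D1:**
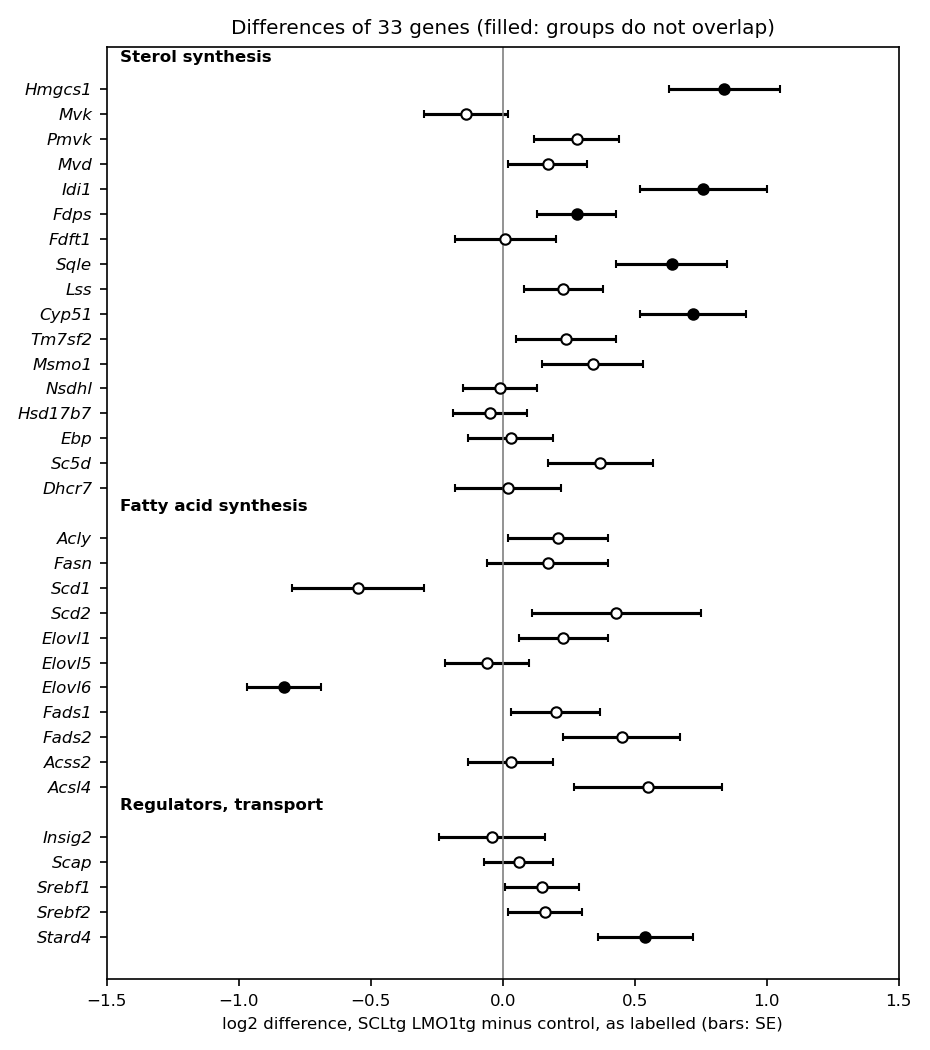
Differences of the 33 genes on the log2 scale (arrays labelled SCLtg LMO1tg minus arrays labelled control, 3 each), with bars of 1 SE from limma and filled points where the groups do not overlap. Sterol genes lie between −0.14 and 0.84, fatty acid genes between −0.83 and 0.55 and regulator or transport genes between −0.04 and 0.54.

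The sterol genes leaned higher in arrays labelled SCLtg LMO1tg, 14 of 17 lying above 0 and 3 below, with a median difference of 0.24 against −0.01 over all genes. Their median deviation from each gene's mean was 0.04, 0.08 and 0.24 in the arrays labelled SCLtg LMO1tg and −0.08, −0.15 and −0.26 in the arrays labelled control, without overlap. Of the 17 genes 4 had an unadjusted p under 0.05, all higher, beside 6.30% of all genes. The groups did not overlap for 5 of them, all higher, beside 7.32% of all genes. The median difference was 0.30 within the low hybridization set and 0.16 within the high set, and 11 of 17 genes were higher in both sets, beside 30.4% of all genes.

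*Hmgcs1*, which encodes the cytosolic HMG-CoA synthase that condenses acetyl-CoA units ahead of mevalonate, had a larger difference than the other sterol genes in the fit of all 6 arrays. *Idi1* passed it when probe sets were averaged (0.92 against 0.86) and without control replicate 1 (0.95 against 0.93), both *Idi1* and *Cyp51* did without control replicate 2 (0.80 and 0.72 against 0.67), and *Cyp51* did after quantile normalization (0.75 against 0.71). It was at 10.00, 10.50 and 10.61 in arrays labelled SCLtg LMO1tg and at 9.70, 9.20 and 9.69 in arrays labelled control. The groups did not overlap, and replicate 1 was the lowest of the SCLtg LMO1tg arrays. The difference was 0.84, or 1.79-fold (SE 0.21, 95% interval 0.38 to 1.30, adjusted p = 0.215 by limma), and it was 0.85 within the low set and 0.56 within the high set. All 4 of its probe sets above the filter were higher without overlap, by 0.84, 0.95, 1.05 and 0.61.

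*Idi1* encodes the isomerase that makes dimethylallyl diphosphate. It was at 7.80, 8.14 and 8.50 in arrays labelled SCLtg LMO1tg and at 7.77, 7.47 and 6.92 in arrays labelled control. SCLtg LMO1tg replicate 1 and control replicate 1 lay next to each other, and the groups did not overlap. The difference was 0.76, or 1.69-fold (SE 0.24, 95% interval 0.21 to 1.31, adjusted p = 0.378), with 0.55 and 0.60 within the low and the high set. Its other probe set differed by 1.08.

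*Cyp51*, the lanosterol demethylase, was at 5.56, 6.25 and 6.23 in arrays labelled SCLtg LMO1tg and at 5.19, 5.31 and 5.39 in arrays labelled control. The difference was 0.72, or 1.64-fold (SE 0.20, 95% interval 0.27 to 1.16, adjusted p = 0.280). The other probe sets of *Cyp51*, below the filter, differed by 0.66 and 0.01. *Cyp51* dropped out of the fit with a filter at the 60th percentile. *Sqle*, the squalene epoxidase, was at 7.36, 8.10 and 8.18 in arrays labelled SCLtg LMO1tg and at 7.31, 7.22 and 7.19 in arrays labelled control, with a difference of 0.64, or 1.56-fold (SE 0.21, adjusted p = 0.387). In both genes the groups did not overlap and SCLtg LMO1tg replicates 2 and 3, of the low set, stood above every other array, while replicate 1 lay nearer to the controls than to them. Within the low set the differences were 1.06 for *Cyp51* and 0.83 for *Sqle*, and within the high set they were 0.21 and 0.16.

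**Figure D2:**
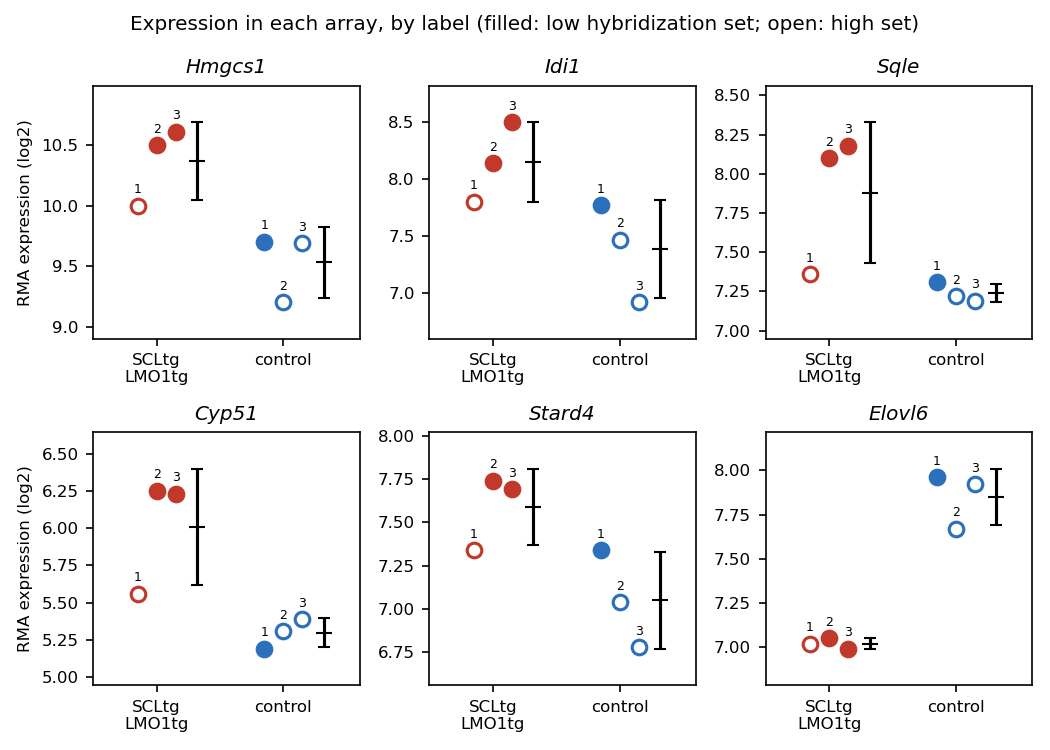
RMA expression (log2) in each array for 6 genes, with the replicate number above each point, filled points for the low and open points for the high hybridization set, and bars for the mean and SD of 3 arrays. *Elovl6* is lower in all 3 arrays labelled SCLtg LMO1tg, and SCLtg LMO1tg replicate 1 is the lowest array of its group for *Hmgcs1*, *Idi1*, *Sqle*, *Cyp51* and *Stard4*.

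Among the other early enzymes, *Fdps*, the synthase of farnesyl diphosphate, was at 6.73, 6.72 and 6.98 in arrays labelled SCLtg LMO1tg and at 6.61, 6.60 and 6.39 in arrays labelled control. Its groups did not overlap, but its difference of 0.28 had an interval of −0.05 to 0.61. The mevalonate kinases and decarboxylase differed by −0.14 (*Mvk*), 0.28 (*Pmvk*) and 0.17 (*Mvd*), and the groups overlapped in each. *Pmvk* was low on these arrays, at or above the filter level in 3 arrays labelled SCLtg LMO1tg and 1 labelled control. *Fdft1*, the squalene synthase that commits farnesyl diphosphate to sterol, differed by 0.01 (95% interval −0.42 to 0.44), with 0.39 within the low set and −0.24 within the high set. Its 4 probe sets disagreed, at 0.01, 0.49, −0.12 and −0.01, so that its difference is uncertain.

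Among the enzymes after lanosterol, which remove its extra methyl groups and move its double bonds, the largest differences after *Cyp51* were those of *Sc5d* and *Msmo1*. *Sc5d*, the lathosterol oxidase, was at 6.24, 6.62 and 6.59 in arrays labelled SCLtg LMO1tg and at 6.50, 5.98 and 5.88 in arrays labelled control, a difference of 0.37 (SE 0.20, adjusted p = 0.576). *Msmo1*, the methylsterol monooxygenase, was at 5.30, 5.76 and 5.64 in arrays labelled SCLtg LMO1tg and at 5.37, 5.45 and 4.87 in arrays labelled control, a difference of 0.34 (SE 0.19, adjusted p = 0.598). The groups overlapped in both. *Lss*, the lanosterol synthase, differed by 0.23 and *Tm7sf2*, a sterol reductase, by 0.24, both with overlap. The late enzymes *Ebp* (0.03), *Dhcr7* (0.02), *Nsdhl* (−0.01) and *Hsd17b7* (−0.05) differed least, with intervals of −0.32 to 0.38, −0.42 to 0.47, −0.34 to 0.31 and −0.36 to 0.26. The sign of these 4 turned with the scaling, as *Ebp* and *Dhcr7* were at −0.10 and −0.14 after quantile normalization and *Nsdhl* and *Hsd17b7* at 0.04 and 0.0014 after centring on the array medians.

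**Figure D3:**
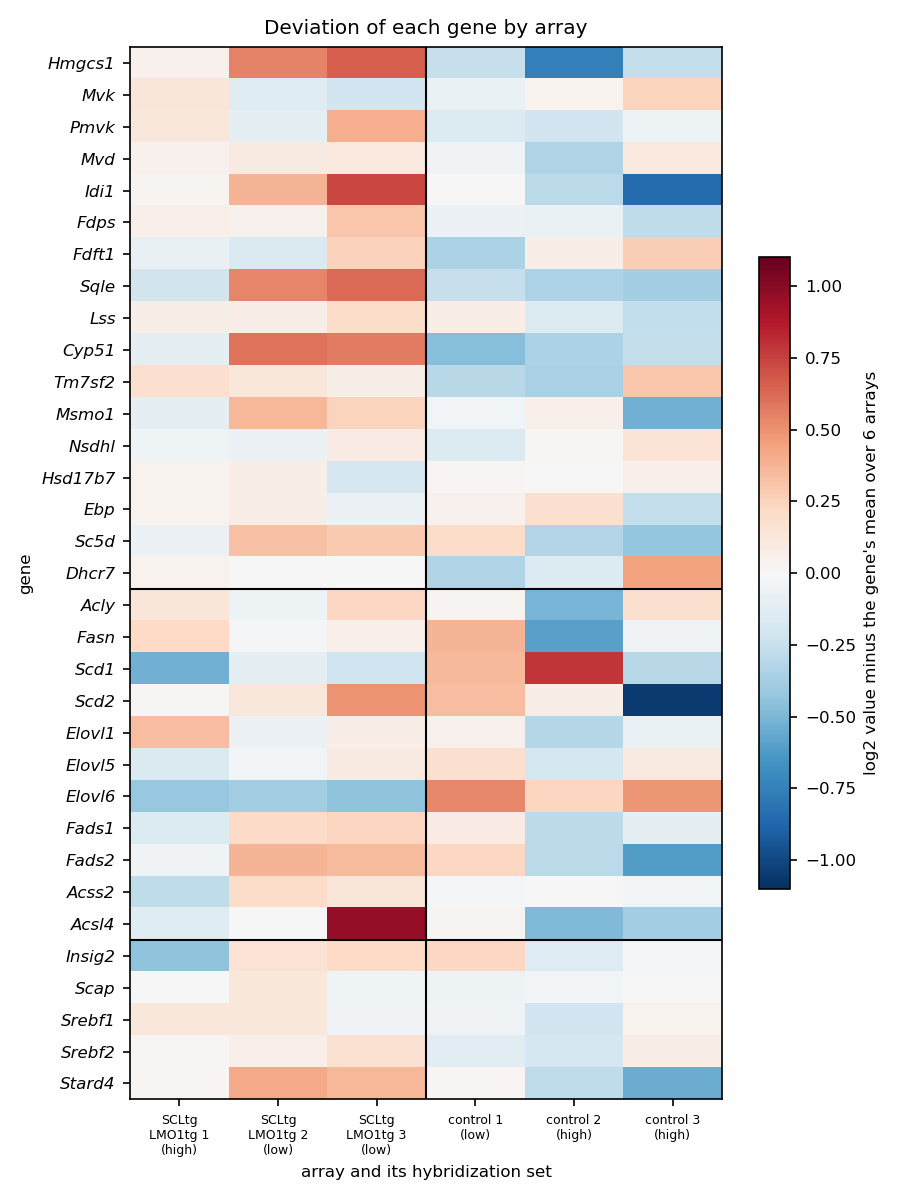
Deviation of each gene in each array from its mean over the 6 arrays (log2, colour scale from −1.1 to 1.1), with sterol, fatty acid and regulator or transport genes from top to bottom and the hybridization set under each array. *Hmgcs1*, *Idi1*, *Sqle* and *Cyp51* are highest in SCLtg LMO1tg replicates 2 and 3, and *Elovl6* is below its mean in all 3 arrays labelled SCLtg LMO1tg.

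The highest value of a sterol gene fell in SCLtg LMO1tg replicate 3 for 6 genes, in SCLtg LMO1tg replicate 2 for 4 and in control replicate 3 for 6, while SCLtg LMO1tg replicate 1 was highest for 0 of the 17. Control replicate 3 was also the lowest array for 7 genes, so that this array held both ends of the pathway's range. *Dhcr7* was at 10.18 in it and at 9.41 and 9.59 in the other controls, where *Idi1* was at 6.92 in it and at 7.77 and 7.47 in the others.

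Genes of cell division had higher values in the same arrays. Of the proliferation list, 18 genes were measured and 18 lay above 0, with a median difference of 0.66. Of them 15 were higher at an unadjusted p under 0.05, beside 6.30% of all genes. The groups did not overlap for 13, beside 7.32% of all genes. No gene of the list passed at an adjusted p under 0.05. Its mean level was 8.40 to 8.76 in arrays labelled SCLtg LMO1tg and 7.81 to 8.13 in arrays labelled control. Its median deviation was 0.13, 0.38 and 0.43 in the arrays labelled SCLtg LMO1tg and −0.21, −0.29 and −0.51 in the arrays labelled control, the same order of arrays as for the sterol genes. *Mki67*, the Ki-67 antigen gene, differed by 0.91, *Rrm2*, a ribonucleotide reductase subunit, by 0.88 and *Cdc6*, a replication licensing factor, by 1.06. The direction of *Cdc6* is opposite to the one the study gives. The part of this in the sterol differences was not tested.

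**Figure D4:**
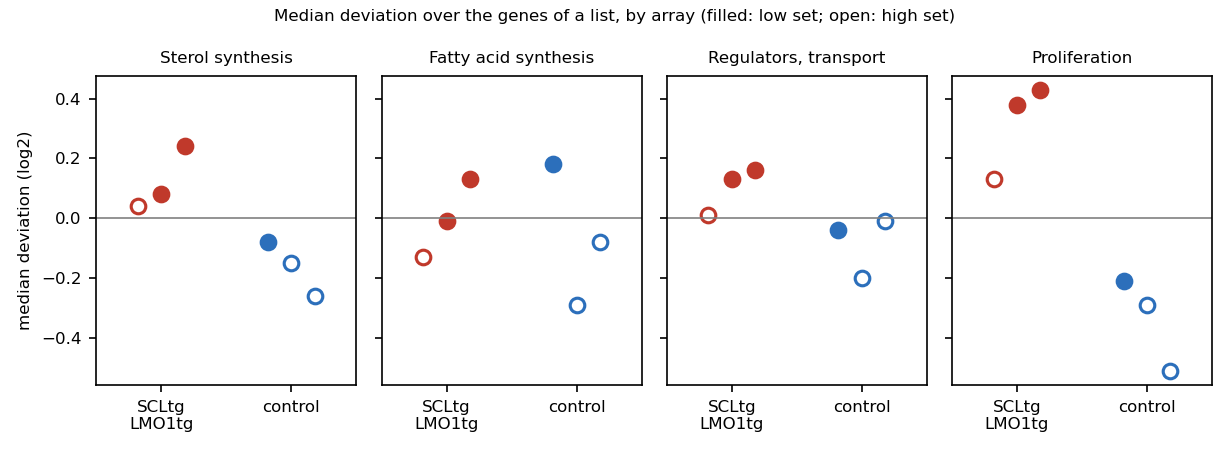
Median over the genes of a list of the deviation from each gene's mean (log2), by array, for the 17 sterol, 11 fatty acid and 5 regulator or transport genes and the 18 proliferation genes, with filled points for the low and open points for the high hybridization set. The groups do not overlap for sterol and proliferation genes, and they overlap for fatty acid genes. For regulator or transport genes they nearly meet, at 0.01 in SCLtg LMO1tg replicate 1 and −0.01 in control replicate 3. Mean levels of these 5 genes overlap, at 7.21 to 7.44 in arrays labelled SCLtg LMO1tg and 7.09 to 7.27 in arrays labelled control.

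Markers of other cells were read in the same arrays, and limma called 0 genes of these lists after adjustment. The 12 neutrophil genes had a median difference of 0.61, with 8 above 0 and 4 below. Of them 6 were higher at an unadjusted p under 0.05 without overlap, beside 6.30% of all genes at that p and 7.32% without overlap. Rank products at 0.1 called 6 genes of the list higher, beside 1.01% of all genes in either direction. The groups overlapped in the other 6. These were the granule protein genes *Mpo* (0.34), *Mmp9* (0.00), *Mmp8* (−0.02) and *Elane* (−0.12) and the receptor genes *Csf3r* (−0.05) and *Cxcr2* (−0.14). The list had a mean level of 6.50 to 7.09 in arrays labelled SCLtg LMO1tg against 5.67 to 6.35 in arrays labelled control. *S100a8*, of the calprotectin pair that fills neutrophil cytosol and the gene of the list with the largest difference, was at 7.64, 6.95 and 8.24 in arrays labelled SCLtg LMO1tg and at 4.92, 5.72 and 5.93 in arrays labelled control. The 5 erythroid genes had a median of 0.55, with mean levels of 7.23 to 8.32 in arrays labelled SCLtg LMO1tg and 7.04 to 7.19 in arrays labelled control, but the median was 0.43 within the low set and −0.03 within the high set. Of these 5 genes 4 lay above 0 and 1 below, and the groups overlapped in 4. At an unadjusted p under 0.05 2 were higher, beside 6.30% of all genes, and rank products at 0.1 called 2 higher. *Car2* had the largest difference of the list, 1.09 (adjusted p = 0.305 by limma) without overlap, with 1.41 and 0.36 in the low and the high set. *Slc4a1*, the anion exchanger of red cells, differed by 1.07, with 1.81 and −0.05 in the low and the high set. The 8 macrophage and dendritic cell genes had a median of 0.05 (mean levels of 6.76 to 7.07 in arrays labelled SCLtg LMO1tg and 6.72 to 6.85 in arrays labelled control). The 5 B cell genes had a median of −0.39 (5.89 to 6.01 in arrays labelled SCLtg LMO1tg and 6.16 to 6.62 in arrays labelled control), and the 10 thymic stroma genes of −0.13 (6.24 to 6.58 in arrays labelled SCLtg LMO1tg and 6.25 to 6.46 in arrays labelled control). The part of these cells in the differences of lipid genes was not tested.

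The fatty acid genes had differences on both sides of 0, and limma called 0 of the 11. Their median difference was 0.20 with 8 of 11 above 0 and 3 below, and it was −0.02 within the low set and 0.30 within the high set. In both sets 4 of the 11 genes were higher and 3 lower, beside 2643 and 2572 of all 8693 genes. Without control replicate 2, the array with the least 3′ excess, the median was 0.04, and the part of this property in it was not tested. The median deviation of the list was −0.13, −0.01 and 0.13 in the arrays labelled SCLtg LMO1tg and 0.18, −0.29 and −0.08 in the arrays labelled control, so that the groups overlapped. Of these genes 1 was lower at an unadjusted p under 0.05 and 0 were higher, beside 3.14% and 6.30% of all genes. The groups overlapped in 10 of the 11.

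That gene was *Elovl6*, the elongase that lengthens palmitate to stearate. It was at 7.02, 7.05 and 6.99 in arrays labelled SCLtg LMO1tg and at 7.96, 7.67 and 7.92 in arrays labelled control. The arrays labelled SCLtg LMO1tg lay close together and every one lay below every control. The difference was −0.83, or 1.78-fold lower in arrays labelled SCLtg LMO1tg (SE 0.14, 95% interval −1.15 to −0.51), and −0.94 and −0.78 within the low and the high set. Rank products called it lower at a percentage of false positives of 0.0280, which passes 0.1 but not 0.01, while limma did not call it (adjusted p = 0.0723). Over the alternative fits the limma value ran from 0.0127 with array weights to 0.372 without SCLtg LMO1tg replicate 3. A further probe set of *Elovl6*, below the filter, differed by −0.53, and its groups overlapped.

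The other elongases differed little. *Elovl1*, which makes very long saturated chains, was at 7.61, 7.20 and 7.34 in arrays labelled SCLtg LMO1tg and at 7.31, 6.95 and 7.19 in arrays labelled control (difference 0.23, 95% interval −0.14 to 0.60). *Elovl5*, which lengthens polyunsaturated chains, differed by −0.06 (−0.41 to 0.29), and its 2 probe sets by −0.06 and −0.07.

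The stearoyl-CoA desaturases, which place the first double bond, did not share a direction. *Scd1* was at 5.33, 5.76 and 5.64 in arrays labelled SCLtg LMO1tg and at 6.21, 6.64 and 5.55 in arrays labelled control, a difference of −0.55 (SE 0.25, adjusted p = 0.534). Control replicate 3 was the low array of its group, and the difference was −0.85 without it and −0.30 without control replicate 2. *Scd2* was at 10.17, 10.28 and 10.65 in arrays labelled SCLtg LMO1tg and at 10.49, 10.23 and 9.10 in arrays labelled control, a difference of 0.43 (SE 0.32, adjusted p = 0.657). Without control replicate 3 the difference was 0.01, and the other probe sets of *Scd2* differed by −0.03 and 0.20.

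The front-end desaturases, which make polyunsaturated acids, both had positive differences. *Fads2* was at 8.33, 8.74 and 8.72 in arrays labelled SCLtg LMO1tg and at 8.60, 8.07 and 7.75 in arrays labelled control, a difference of 0.45 (SE 0.22, 95% interval −0.05 to 0.96, adjusted p = 0.552). It was 0.26 without control replicate 3 and 0.69 without control replicate 1, and its other probe set differed by 0.20. *Fads1* differed by 0.20 (−0.17 to 0.58). The groups overlapped in both genes.

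Among the enzymes that supply and activate the chains, *Acsl4*, an acyl-CoA synthetase that prefers arachidonate, was at 5.35, 5.49 and 6.45 in arrays labelled SCLtg LMO1tg and at 5.52, 5.00 and 5.11 in arrays labelled control. Its difference of 0.55 (SE 0.28, adjusted p = 0.562) was 0.21 without SCLtg LMO1tg replicate 3, and 1 control array reached the filter level. The other probe sets of *Acsl4*, below the filter, differed by −0.02 and 0.13. *Fasn*, the fatty acid synthase, was at 7.49, 7.26 and 7.33 in arrays labelled SCLtg LMO1tg and at 7.65, 6.68 and 7.24 in arrays labelled control, a difference of 0.17 (95% interval −0.34 to 0.67) that was −0.35 within the low set, 0.52 within the high set and −0.09 without control replicate 2. *Acly*, the ATP citrate lyase that releases cytosolic acetyl-CoA, differed by 0.21 and its other probe sets by −0.19 and 0.02. *Acss2*, which makes acetyl-CoA from acetate, differed by 0.03 (−0.33 to 0.39).

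**Figure D5:**
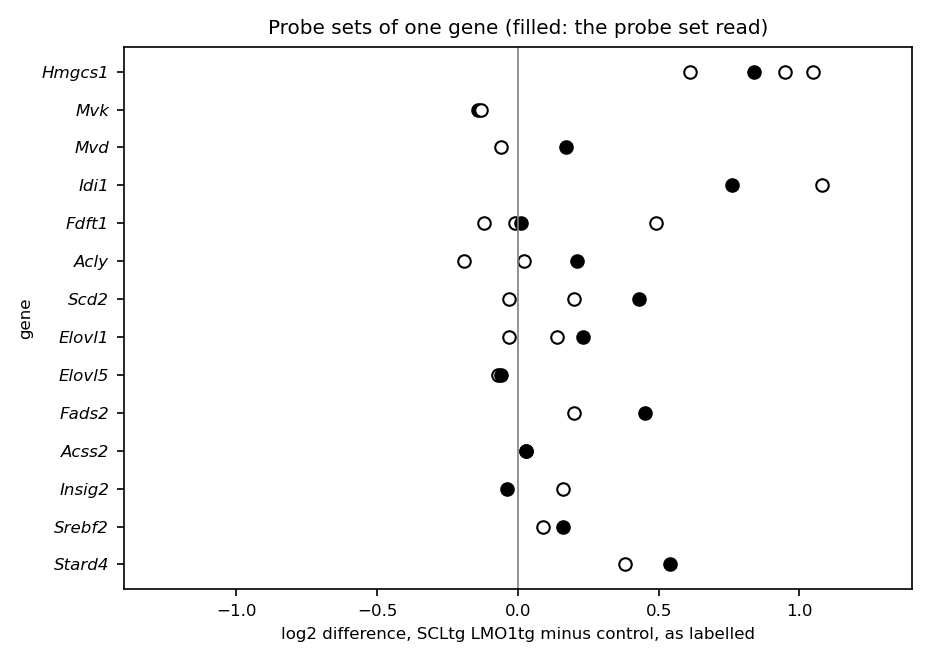
Differences (log2, arrays labelled SCLtg LMO1tg minus arrays labelled control) of every kept probe set of the 14 genes with more than 1, the filled point being the probe set read for the gene. All 4 probe sets of *Hmgcs1* lie above 0.6, and those of *Fdft1*, *Acly*, *Scd2*, *Elovl1*, *Mvd* and *Insig2* lie on both sides of 0.

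The genes of the SREBP system itself differed little. *Srebf2*, whose product drives mainly the sterol genes, was at 6.97, 7.01 and 7.12 in arrays labelled SCLtg LMO1tg and at 6.84, 6.76 and 7.03 in arrays labelled control, a difference of 0.16 (95% interval −0.16 to 0.47). *Srebf1*, whose product drives mainly the fatty acid genes, was at 8.10, 8.10 and 7.93 in arrays labelled SCLtg LMO1tg and at 7.93, 7.76 and 8.01 in arrays labelled control, a difference of 0.15 (−0.17 to 0.46). The groups overlapped in both genes, and transcript levels do not show how much SREBP had been cleaved.

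*Scap* was at 6.97, 7.09 and 6.92 in arrays labelled SCLtg LMO1tg and at 6.91, 6.93 and 6.96 in arrays labelled control, a difference of 0.06 (95% interval −0.23 to 0.36). *Insig2* was at 6.66, 7.26 and 7.32 in arrays labelled SCLtg LMO1tg and at 7.33, 6.96 and 7.08 in arrays labelled control, a difference of −0.04 (−0.49 to 0.41) whose sign turned with scaling, to 0.01 after centring on the array medians. SCLtg LMO1tg replicate 1 was the lowest array for *Insig2*, and its other probe set differed by 0.16.

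*Stard4*, which encodes a carrier that moves cholesterol between membranes, was the gene of this group with the largest difference. It was at 7.34, 7.74 and 7.69 in arrays labelled SCLtg LMO1tg and at 7.34, 7.04 and 6.78 in arrays labelled control. SCLtg LMO1tg replicate 1 and control replicate 1 met at the same rounded value, and the other 4 arrays lay apart by label. Its groups were counted as not overlapping only through digits beyond the rounding. The difference was 0.54, or 1.46-fold (SE 0.18, 95% interval 0.13 to 0.95, adjusted p = 0.395), with 0.38 within the low set and 0.44 within the high set. Its second probe set differed by 0.38. Over the 5 regulators and carriers the median difference was 0.15, with 4 above 0, and it was 0.02 after quantile normalization.

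Neighbouring steps of the pathway are given from lists of related genes. Of the enzymes that take isoprenyl groups out of the sterol pathway for protein prenylation, dolichol and ubiquinone, 7 of 11 were measured, 0 had an unadjusted p under 0.05 and the median difference was 0.15. *Rabggtb*, a subunit of the Rab prenyltransferase, had the largest, 0.43 (adjusted p = 0.614). Of the genes that cleave, carry or degrade SREBP and its partners, 6 of 11 were measured, with a median of 0.26. *Fbxw7*, a ubiquitin ligase subunit with SREBPs, NOTCH1 and MYC among its substrates, was at 7.60, 7.97 and 7.88 in arrays labelled SCLtg LMO1tg and at 7.37, 6.76 and 7.52 in arrays labelled control, a difference of 0.60 (unadjusted p = 0.0181, adjusted p = 0.416). *Erlin1*, an endoplasmic reticulum protein that binds cholesterol, differed by 0.46 (adjusted p = 0.377), and *Sec24d*, a coat protein of the vesicles that leave the endoplasmic reticulum, by −0.32 (adjusted p = 0.499). The groups did not overlap in these 3 genes.

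Of 20 further names of fatty acid synthesis and elongation, 8 were measured, with a median of 0.07. *Hacd2*, a dehydratase of the elongation cycle that *Elovl6* opens, differed by 0.38 (adjusted p = 0.513) and *Acsl5*, an acyl-CoA synthetase, by 0.34 (adjusted p = 0.511), both without overlap. *Tecr* and *Hsd17b12*, the reductases of that cycle, differed by 0.13 and 0.14. In each of these 3 lists limma called 0 genes after adjustment, and rank products called 0. At an unadjusted p under 0.05 0 of 7 genes were higher and 0 lower in the prenylation list, 2 of 6 higher and 1 lower in the SREBP list, and 2 of 8 higher and 0 lower in the elongation list, beside 6.30% higher and 3.14% lower over all genes.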

How the data were processed

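Thymocyte RNA of 3 arrays labelled SCLtg LMO1tg and 3 labelled control was measured. The authors made the deposited log2 values, 1 per probe set and array, with RMA of the affy package. Their later removal of probe sets that MAS5 called absent is not applied in the deposited values. Per the submitters' processing notes no versions are stated.

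Of 22690 probe sets, 20393 name 1 gene. Probe sets at or above the 40th percentile of the array in at least 3 of 6 arrays were kept (13776), and each gene was read by the probe set with the highest mean (8693 genes). A gene passed without regard to the groups, and no listed gene passed through arrays of 1 group alone. Groups were compared over all genes with limma 3.58.1 in R 4.3.3 and Benjamini-Hochberg adjustment at 0.05. Rank products used 9 pairwise differences and 100 permutations. The scripts were tested on simulated data. The number of arrays limits the precision.

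The genes and lists were chosen with earlier results of these data known. All measured genes of the pathway are named, with values in every array for up to 6 per group with the largest differences, for genes called by either test and for the regulators. From related lists up to 3 genes with the largest differences are named. The array values of *Fdps* and *Fasn* were chosen after their values were seen. So were the genes *Tecr*, *Hsd17b12*, *Npc2*, *Osbpl2*, *Cxcr2*, *Elane*, *Csf3r*, *Mpo*, *Mmp8*, *Mmp9*, *Xist* and *Eif2s3y*. *Lmo1*, *Tal1* and *Cd3e* served as checks of the labels. Alternatives were other filters, quantile normalization, centring, array weights, a robust variance model with a trend, blocks for replicate number and hybridization set, probe set means, an adjusted p under 0.1, rank products and each array left out in turn. Rank products at 0.01 was added after seeing the data.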

Additional observations from a re-analysis of the deposited data

How the results depend on the processing

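The median differences of the sterol genes stayed between 0.18 and 0.29 and those of the fatty acid genes between 0.04 and 0.30 over these alternatives, and that of the regulators fell to 0.02 after quantile normalization. The count of all genes called was 31 with quantile normalization, 28 with a block for the hybridization set, 547 with array weights, 33 at an adjusted p under 0.1, 88 by rank products at 0.1 and 24 by rank products at 0.01 (an alternative chosen after seeing the data), beside 14, and between 7 (without control replicate 2) and 27 (without control replicate 1) when 1 array was left out, with 8 without SCLtg LMO1tg replicate 2 or 3. No gene of the 33 was called when any single array was left out. Array weights called 4 sterol genes (*Hmgcs1*, *Idi1*, *Sqle* and *Cyp51*, adjusted p of 0.0104, 0.0393, 0.0258 and 0.0165), 1 fatty acid gene (*Elovl6*) and 1 carrier (*Stard4*, 0.0295). These calls stand beside the 547 of all 8693 genes that the same fit called. *Elovl6* was also the 1 fatty acid gene called with quantile normalization, with the hybridization set block, at an adjusted p under 0.1 and by rank products at 0.1. With a replicate block the count of all genes called was 9 and no gene of the 33 was called. Residuals of same-numbered arrays correlated at −0.64, 0.01 and −0.38. Each such pair joined an array of the low and an array of the high hybridization set. The correlations therefore cannot decide whether the numbers mark a pairing. The cause of these shifts was not tested.

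Of the 33 genes 24 kept the sign of their difference in all fits they entered, and 9 near 0 turned. With quantile normalization *Fdft1*, *Ebp* and *Dhcr7* were at −0.01, −0.10 and −0.14. With arrays centred on their medians *Nsdhl*, *Hsd17b7* and *Insig2* were at 0.04, 0.0014 and 0.01. With array weights *Fdft1*, *Hsd17b7*, *Ebp*, *Elovl5* and *Insig2* were at −0.11, 0.02, −0.01, 0.04 and 0.17. With the hybridization set block *Nsdhl* and *Acss2* were at 0.01 and −0.04, and *Insig2* was at 0.06 when its probe sets were averaged. With 1 array left out the differences ran from −0.16 to 0.15 (*Fdft1*), −0.09 to 0.06 (*Nsdhl*), −0.10 to 0.03 (*Hsd17b7*), −0.09 to 0.13 (*Ebp*), −0.14 to 0.25 (*Dhcr7*), −0.09 to 0.40 (*Fasn*), −0.17 to 0.02 (*Elovl5*), −0.06 to 0.18 (*Acss2*) and −0.16 to 0.17 (*Insig2*).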

Other observations

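Genes that move sterol and fatty acids out of or into the cell, or burn them, were measured on the same arrays, with the labels used as they stand. Of the sterol efflux and storage list 9 of 12 genes were measured, with a median difference of 0.01. At an unadjusted p under 0.05 by limma 2 were lower, beside 3.14% of all genes. *Abca1*, the exporter that loads cholesterol onto apolipoprotein A-I, was at 5.73, 5.87 and 6.01 in arrays labelled SCLtg LMO1tg and at 6.99, 6.43 and 6.08 in arrays labelled control (difference −0.63, SE 0.22, adjusted p = 0.407). *Abcg1*, which exports cholesterol to high density lipoprotein, was at 9.38, 9.12 and 9.45 in arrays labelled SCLtg LMO1tg and at 9.96, 10.26 and 9.59 in arrays labelled control (difference −0.62, SE 0.19, adjusted p = 0.353). The groups did not overlap in either gene, and neither passed the threshold. In the same list *Npc2* and *Osbpl2*, carriers of cholesterol and of oxysterols, did not overlap in the other direction (differences 0.21 and 0.16, adjusted p = 0.635 and 0.683). *Abca1* and *Abcg1* are known targets of the liver X receptors, which sense oxysterols. *Scarb1*, a lipoprotein receptor, differed by 0.37 with overlap.

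Of the uptake and binding list 6 of 8 genes were measured, with a median of 0.16. *Fabp5*, a cytosolic fatty acid carrier, was at 9.29, 8.79 and 9.30 in arrays labelled SCLtg LMO1tg and at 8.36, 7.63 and 7.76 in arrays labelled control. It was called higher by rank products and not by limma (difference 1.21, SE 0.22, adjusted p = 0.0968), and differed by 0.68 within the low and 1.59 within the high hybridization set. *Dbi*, the acyl-CoA binding protein, differed by 0.70 (adjusted p = 0.442) without overlap. Of the oxidation list 17 of 20 genes were measured, with a median of 0.14. *Acadl*, the long-chain acyl-CoA dehydrogenase, was at 8.07, 8.44 and 8.57 in arrays labelled SCLtg LMO1tg and at 9.27, 9.23 and 9.07 in arrays labelled control (difference −0.83, SE 0.17, adjusted p = 0.120), and rank products called it lower. *Etfa*, the electron acceptor subunit for these dehydrogenases, differed by 0.73 and *Acadvl*, their very long-chain member, by 0.43, both with overlap. Of the glycerolipid list 14 of 16 genes were measured, with a median of 0.00, and *Agpat5* and *Ptdss1*, an acyltransferase and a phosphatidylserine synthase, differed by 0.57 (adjusted p = 0.519) and 0.36 (adjusted p = 0.465).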
